A study of Mus musculus with 2 samples.

Results

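The 6 genes *Tecta*, *Tectb*, *Ceacam16*, *Otog*, *Otogl* and *Otoa*, of 21911 protein-coding genes in the annotation, encode noncollagenous proteins of the tectorial membrane and of its attachment to the inner ear epithelium. They were chosen by name for this role, and every ATAC-seq peak was taken whose centre lay within 3 kb of any transcription start site (TSS) of theirs, or in the gene body and the 10 kb upstream (together the gene region). This gave 27 peaks of 77596 in the WT list and 32 of 100431 in the Bmi1-/- list, and all of them lay in a gene region.

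The tectorial membrane is the extracellular gel that covers the organ of Corti and deflects the stereocilia of the hair cells when sound arrives. Its striated-sheet matrix is built from the zona pellucida domain proteins alpha-tectorin (*Tecta*) and beta-tectorin (*Tectb*) together with the secreted adhesion molecule CEACAM16, and this matrix holds the collagen fibrils. Otogelin (*Otog*) and otogelin-like (*Otogl*) are large mucin-like proteins of the acellular membranes of cochlea and vestibule, and otoancorin (*Otoa*) sits where the membrane is anchored to the spiral limbus and, for a time, to supporting cells of the epithelium.

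ATAC-seq marks open chromatin as the places where a transposase can cut and tag the DNA. The organ of Corti of P2 mice was compared between WT and Bmi1-/- (Bmi1 KO) animals, which lack the polycomb protein Bmi1 in every cell, and tissue, age and preparation were the same in both. The null allele came from the strain FVB.129P2-Bmi1tm1Brn/MvlJ, had been bred onto C57BL/6J, and the WT animals were littermates. Each genotype was represented by 1 library made from 10 pooled mice, so that no difference could be set against the spread between animals and no test was made. The methods describe organ of Corti dissections from which the tectorial membrane itself, the stria anlage and the modiolus had been taken off. Whether the spiral limbus, which carries the interdental cells, was kept is not given in the sources used here. In such bulk tissue, fewer cells of a type and less accessible chromatin per cell cannot be told apart.

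The peak names inside the lists contradicted the labels: 100% of the names in the list labelled WT carried the prefix of the knockout, and 100% of those in the list labelled Bmi1 KO carried the prefix of the wild type. "WT list" and "Bmi1-/- list" therefore mean the lists as labelled, and every direction given here rests on those labels. Peaks at the start of *Bmi1* itself were present in both lists (40.1st percentile in the WT list and 92.0th in the Bmi1-/- list), which does not check the genotype, since the deleted part is not given in the sources used here. The depth was known only as the number of reads behind each summit, solved from the deposited values: the commonest background was 6.32 reads in the WT library and 8.04 in the Bmi1-/- library, a ratio of 1.27. Of the fixed markers, 8 of 10 hair cell genes had a promoter peak in each list, and 9 (WT) and 7 (Bmi1-/-) of 10 supporting cell genes. Promoter peaks were found at 4 and 6 of 8 neuronal genes, 4 and 5 of 8 glial genes, 4 and 4 of 8 mesenchymal genes, 3 and 1 of 8 blood and macrophage genes, and 6 and 5 of 8 endothelial genes. Over all protein-coding genes, the shares with a promoter peak were 59.0% (WT) and 68.2% (Bmi1-/-), so that these counts do not tell which cell types were present. The part of these other cell types in the peaks of the matrix genes was not tested.

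The sequences of 5 stretches are shown because they carry the observations below: the promoter of *Tectb*, where the only peak over the annotated start of a member gene was called, and the 4 places where a WT peak and a Bmi1-/- peak overlapped. All are from GRCm38 and written 5′ to 3′ on the strand of the gene. In the *Tectb* promoter (chr19:55180476-55180725, + strand, from RefSeq's promoter table for GRCm38.p6) capitals mark the 120 bases inside the WT peak. In the others capitals mark the bases called in both lists. The place of each of these 4 stretches was named from the peak summits alone, so that a stretch named intronic can also hold exon. They lie upstream of *Tecta* (chr9:42407325-42407599, - strand, 55 bases in both), in an intron and coding exon of *Ceacam16* (chr7:19853750-19854042, - strand, 198 bases in both), upstream of *Ceacam16* (chr7:19863387-19863686, - strand, 181 bases in both) and in an intron of *Otog* (chr7:46273925-46274224, + strand, 275 bases in both).
Tectb promoter: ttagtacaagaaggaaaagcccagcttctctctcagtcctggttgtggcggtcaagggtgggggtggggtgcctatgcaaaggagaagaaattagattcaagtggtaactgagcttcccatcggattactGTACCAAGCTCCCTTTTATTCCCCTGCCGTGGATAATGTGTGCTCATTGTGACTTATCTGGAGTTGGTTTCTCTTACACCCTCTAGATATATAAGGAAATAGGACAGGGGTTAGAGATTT
Tecta upstream: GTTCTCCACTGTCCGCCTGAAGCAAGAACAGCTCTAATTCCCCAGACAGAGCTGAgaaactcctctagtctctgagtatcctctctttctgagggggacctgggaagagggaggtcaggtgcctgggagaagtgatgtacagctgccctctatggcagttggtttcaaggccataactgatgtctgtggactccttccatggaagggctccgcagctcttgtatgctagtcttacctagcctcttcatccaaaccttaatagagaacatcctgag
Ceacam16 internal: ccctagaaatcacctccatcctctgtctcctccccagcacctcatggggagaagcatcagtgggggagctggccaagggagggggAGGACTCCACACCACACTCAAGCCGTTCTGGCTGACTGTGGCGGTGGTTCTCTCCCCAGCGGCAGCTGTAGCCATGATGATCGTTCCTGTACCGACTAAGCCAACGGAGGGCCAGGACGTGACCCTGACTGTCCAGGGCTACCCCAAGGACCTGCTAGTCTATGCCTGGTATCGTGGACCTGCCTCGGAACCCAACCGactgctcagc
Ceacam16 upstream: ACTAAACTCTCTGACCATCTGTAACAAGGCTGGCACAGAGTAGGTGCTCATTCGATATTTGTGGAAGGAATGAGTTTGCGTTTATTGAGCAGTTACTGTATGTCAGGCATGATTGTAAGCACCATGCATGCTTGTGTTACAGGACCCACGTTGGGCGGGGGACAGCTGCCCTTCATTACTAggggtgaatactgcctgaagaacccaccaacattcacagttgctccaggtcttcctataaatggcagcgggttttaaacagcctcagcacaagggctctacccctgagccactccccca
Otog intron: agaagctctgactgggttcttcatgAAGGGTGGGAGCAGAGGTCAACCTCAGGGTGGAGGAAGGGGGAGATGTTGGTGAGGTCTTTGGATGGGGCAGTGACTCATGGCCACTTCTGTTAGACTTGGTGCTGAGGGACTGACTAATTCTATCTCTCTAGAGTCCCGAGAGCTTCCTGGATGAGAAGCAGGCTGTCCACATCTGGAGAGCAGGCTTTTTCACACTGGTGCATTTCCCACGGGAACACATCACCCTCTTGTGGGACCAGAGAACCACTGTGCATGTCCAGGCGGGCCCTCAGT

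Only *Tectb* among the matrix genes had a peak over its annotated gene start, in the WT list. A peak of *Otoa*, whose annotated gene start is that of a noncoding transcript, covered the start of a protein-coding transcript in the Bmi1-/- list. *Otogl* had 1 peak in all. For the 6 genes together, the intervals of the peak density and of the overlap included the values of all gene regions. The gene regions cover 459 kb and held 5.89 peaks per 100 kb in the WT list (exact Poisson 95% interval 3.88 to 8.57) and 6.98 in the Bmi1-/- list (4.77 to 9.85), beside 4.54 and 5.70 over the regions of all protein-coding genes. These pooled values join unlike genes. *Otogl* took 161.6 kb of the length and held 0 and 0.619 peaks per 100 kb. The other 5 genes ranged from 3.91 (*Tectb*) to 26.0 (*Ceacam16*) in the WT list and from 3.91 to 15.6 in the Bmi1-/- list. Of the member peaks, 4 in each list overlapped a peak of the other list by at least 1 bp. This was 14.8% of the WT peaks (exact binomial 95% interval 4.19 to 33.7) and 12.5% of the Bmi1-/- peaks (3.51 to 29.0), beside 28.9% and 21.9% of the peaks in all gene regions, which lie within these intervals. The 23 WT peaks and 28 Bmi1-/- peaks that had no overlap stand against a background of 71.1% and 78.1% without one. A peak in both lists was present at 5 of the 6 gene regions, all but *Otogl*, beside 69.0% of all genes. An overlapping pair was present at 3 of them (*Tecta*, *Ceacam16* and *Otog*), beside 49.8% (WT peaks) and 49.7% (Bmi1-/- peaks) of all genes. All intervals cover counting error only.

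**Figure D1:**
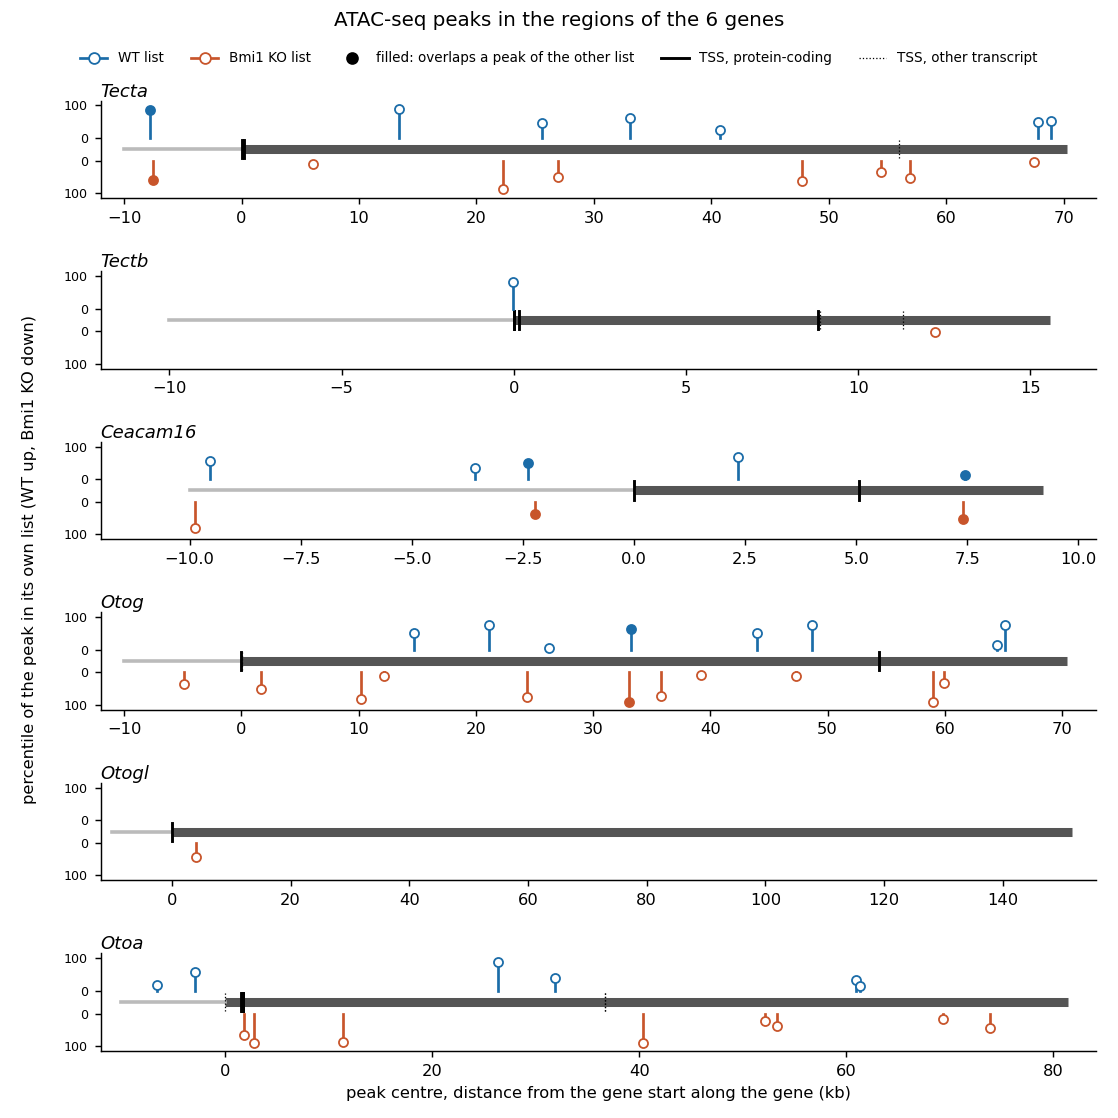
Peaks in the regions of the 6 genes, drawn along each gene from its start (kb, dark bar; 10 kb upstream, grey line). The height of each stem is the percentile of the peak within its own list, WT upward and Bmi1 KO downward, and filled circles overlap a peak of the other list: the 4 pairs lie at Tecta, Ceacam16 (2 pairs) and Otog, Otogl has 1 peak in all, and the WT peak of Tectb stands at the start of the gene.

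Within 3 kb of any TSS, 3 members had a peak in the WT list (*Tectb*, *Ceacam16* and *Otoa*) and 5 in the Bmi1-/- list (the same 3, *Tecta* and *Otog*), with a background of 59.0% and 68.2% of protein-coding genes. *Tecta* and *Otog* had such a peak in the Bmi1-/- list only, as did 15.2% of all genes, and no member had it in the WT list only (6.10% of all genes). The 3 members with a promoter peak in both lists compare with 52.9% of genes, and *Otogl*, with none, with 25.7%. The 3 kb window also took in internal starts and starts of transcripts that encode no protein. Within 1 kb of the TSS of a protein-coding transcript there was a peak at 1 member in the WT list (*Tectb*) and at 1 in the Bmi1-/- list (*Otoa*), beside 45.8% and 57.9% of all genes. With RefSeq's transcripts, or with the 3 kb window around starts of protein-coding transcripts alone, a promoter peak was left at 2 members in the WT list and 3 in the Bmi1-/- list.

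Peak strength was given by the percentile of the -log10 p within the peak's own list, since values of the 2 lists are not on a common scale. The strongest member peak stood at the 89.8th percentile in the WT list (*Tecta*) and the 90.9th in the Bmi1-/- list (*Otog*), and the medians over all member peaks were 50.7 and 51.5. A -log10 q of at least 1.3 was reached by 17 WT peaks (63.0%) and 21 Bmi1-/- peaks (65.6%), beside 53.5% and 64.7% of the peaks in all gene regions. A -log10 q of 5 or more was reached at no member in either list, and at 5.23% (WT) and 19.9% (Bmi1-/-) of all genes. The highest values were 2.58 and 3.56. By rank, 4 of the 6 members (*Ceacam16*, *Otog*, *Otogl* and *Otoa*) had their strongest region peak in the Bmi1-/- list, *Otogl* because it had no WT peak, while *Tecta* and *Tectb* had it in the WT list. Among all 18136 genes with a peak in either list, 64.3% had it in the Bmi1-/- list.

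**Figure D2:**
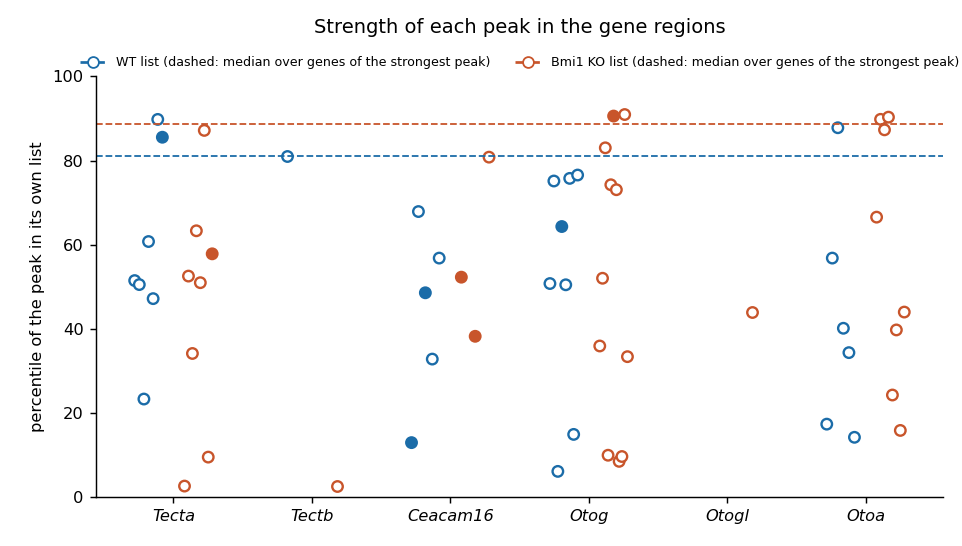
Percentile of every gene-region peak within its own list, by gene, with WT peaks in blue and Bmi1 KO peaks in orange and filled circles for peaks that overlap between the lists. Dashed lines give the median over all protein-coding genes of the strongest peak (81.0 and 88.6); no peak of the 6 genes exceeds the 89.8th percentile in the WT list or the 90.9th in the Bmi1 KO list.

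The pileup at the summit ranged from 16 to 24 reads in the WT list (median 20) over a local background of 6.32 to 8.80 reads, and from 18 to 29 in the Bmi1-/- list (median 22) over 8.04 to 11.3. At the commonest background of each library, the smallest pileup that gave a deposited peak was 13 and 15 reads. A stretch without a peak in 1 list may thus hold reads just under that limit, and its level there is not known.

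**Figure D3:**
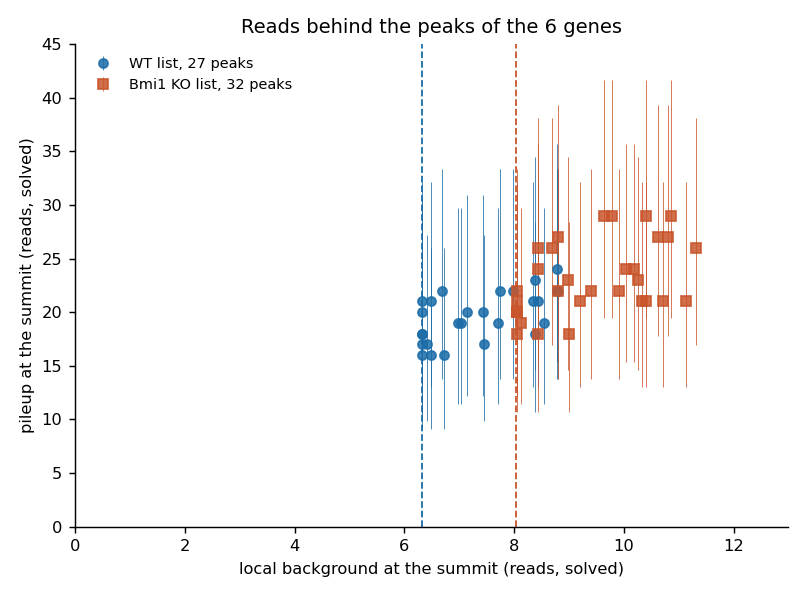
Reads at the summit of each member peak (vertical axis) against the local background (horizontal axis), both solved from the deposited values, with exact Poisson 95% intervals as bars. Dashed lines mark the commonest background of each library, 6.32 and 8.04 reads; WT pileups lie between 16 and 24 reads and Bmi1 KO pileups between 18 and 29, and their intervals overlap throughout.

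*Tecta* (chromosome 9, 42329619 to 42399929, - strand), which encodes alpha-tectorin, the main noncollagenous glycoprotein of the membrane, had 7 WT and 8 Bmi1-/- peaks in a region of 80.3 kb. The densities were 8.72 (3.50 to 18.0) and 9.96 (4.30 to 19.6) peaks per 100 kb, and the intervals overlap almost entirely. No peak lay within 5 kb of its protein-coding starts in either list: the nearest was the Bmi1-/- peak 6102 bp inside the gene, at the 9.45th percentile. Its only overlapping pair was upstream, centred 7804 bp (WT) and 7533 bp (Bmi1-/-) from the gene start, the stretch printed above. There the WT peak (42407545 to 42407921) had 21 reads over 6.48 and stood at the 85.5th percentile, and the Bmi1-/- peak (42407325 to 42407599) had 21 reads over 8.04 and stood at the 57.8th. The pileup was thus the same in both libraries over unequal backgrounds, the peaks shared 55 bp (14.6% of the WT peak), and their summits were 181 bp apart.

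The strongest WT peak of *Tecta* lay in an intron 13447 bp from the gene start (42386356 to 42386607, -log10 q 2.58, 22 reads over 6.68) and 620 bp from the TSS of the antisense gene *Gm47629*. ATAC-seq does not tell which of these genes an accessible site belongs to. The strongest Bmi1-/- peak covered a coding exon 22217 bp from the start (42377510 to 42377914, -log10 q 3.03, 29 reads over 10.4, 87.2nd percentile), and no WT peak had its centre within 3 kb of it. The promoter peaks of *Tecta* in the Bmi1-/- list were 956 bp inside and 1509 bp before the start of a short 3′ transcript with no coding sequence, more than 50 kb into the gene, at the 52.5th and 34.1st percentile. Near the 3′ end, a WT peak (50.5th percentile) and a Bmi1-/- peak (2.57th) had centres 339 bp apart without overlapping.

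*Tectb* (chromosome 19, 55180733 to 55196313, + strand), which encodes beta-tectorin, the partner of alpha-tectorin in the striated sheet, had 1 peak in each list within 25.6 kb, and they were far apart. The WT peak (55180606 to 55180810) was centred 25 bp upstream of the gene start, with 20 reads over 6.32, a fold enrichment of 2.87, a -log10 q of 2.07 and a rank at the 81.0th percentile. Of all member peaks it was the only one within 1 kb of an annotated gene start, while 41.0% of all genes had such a peak in the WT list and 53.3% in the Bmi1-/- list. The Bmi1-/- peak (55192811 to 55193096) lay 12221 bp into the gene, 276 bp from the TSS of the microRNA gene *Mir6715* and 921 bp from that of a noncoding *Tectb* transcript. With 18 reads over 9, a -log10 q of 0.610 and the 2.68th percentile, it was among the weakest peaks deposited. At the gene start, the Bmi1-/- list held no peak, which at the commonest background of 8.04 reads means that fewer than about 15 reads were piled up or the local background was higher.

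*Ceacam16* (chromosome 7, 19852097 to 19861299, - strand) encodes the secreted CEACAM protein of the striated-sheet matrix and is the shortest of the 6 genes. Its region of 19.2 kb held 5 WT and 3 Bmi1-/- peaks, that is 26.0 (8.45 to 60.8) and 15.6 (3.22 to 45.7) per 100 kb, the highest density of the 6 genes in both lists. It was also the only member with fewer peaks in the Bmi1-/- list, and with 2 overlapping pairs. The pair inside the gene had summits 53 bp apart and shared 198 bp, or 95.2% of the WT peak and 70.0% of the Bmi1-/- peak. Its strength differed in rank, at the 12.9th percentile in the WT list (17 reads over 7.46) and the 52.3rd in the Bmi1-/- list (24 reads over 10.0). The pair upstream of the gene shared 181 bp, with summits 181 bp apart, at the 48.5th (21 reads over 8.34) and 38.2nd percentile (22 reads over 9.40).

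The strongest WT peak of *Ceacam16* was intronic, 2351 bp from the start (19858766 to 19859130, -log10 q 1.72, 67.9th percentile), and had no overlap. The strongest Bmi1-/- peak lay 9866 bp upstream (19870957 to 19871372, -log10 q 2.45, 24 reads over 8.44, 80.8th percentile) and 273 bp from the TSS of the noncoding gene *Gm44659*. A WT peak at the 56.8th percentile was centred 337 bp from it and 610 bp from the same TSS. The 2 intervals did not touch and are counted among the peaks without overlap.

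*Otog* (chromosome 7, 46240987 to 46311434, + strand) encodes otogelin, a glycoprotein of the tectorial membrane and of the vestibular membranes. It had the most peaks of the 6 genes, 8 in the WT list and 11 in the Bmi1-/- list over 80.4 kb, or 9.94 (4.29 to 19.6) and 13.7 (6.83 to 24.5) per 100 kb. All 8 WT peaks lay more than 14 kb into the gene. The Bmi1-/- list also had peaks 1661 bp inside the gene (46242504 to 46242791, -log10 q 1.58, 26 reads over 11.3, 52.0th percentile) and 4863 bp upstream (35.9th percentile). The former was thus of middle rank and the latter below it. The latter also lay 2340 bp from a TSS of the neighbouring gene *Ush1c*. It was therefore also counted as a promoter peak of *Ush1c*, a gene of the hair bundle list below.

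The overlapping pair of *Otog* was the strongest of the 4 in the Bmi1-/- list. The WT peak (46273950 to 46274437) had 20 reads over 7.14 at the 64.3rd percentile, and the Bmi1-/- peak (46273894 to 46274224) had 29 reads over 9.78 at the 90.6th, with a -log10 q of 3.47. They shared 275 bp, and their summits were 223 bp apart. The strongest Bmi1-/- peak of all 6 genes by -log10 q covered a coding exon of *Otog* (46299900 to 46300107, 3.56, 29 reads over 9.64, 90.9th percentile), and its nearest WT peak was centred 5433 bp away. The strongest WT peak of *Otog* was intronic (46305975 to 46306206, -log10 q 1.95, 24 reads over 8.78, 76.5th percentile) and had no overlap.

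*Otogl* (chromosome 10, 107760531 to 107912134, - strand), which encodes the otogelin-like protein, was nearly empty although its region of 161.6 kb was the longest of the 6. The WT list had no peak in it, which allows up to 2.28 peaks per 100 kb, and the Bmi1-/- list had 1, or 0.619 per 100 kb (0.0157 to 3.45). This peak was intronic, 4060 bp from the gene start (107907958 to 107908189, 20 reads over 8.04, -log10 q 1.35, 44.0th percentile). Among the 1612 protein-coding genes with a region of at least 150 kb, the median was 8 WT and 11 Bmi1-/- peaks. No WT peak was found in 5.40% of these genes, at most 1 Bmi1-/- peak in 6.39%, and both in 3.29%.

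The surroundings of *Otogl* were sparse as well. In the 1 Mb to each side of its region there were 35 WT peaks (1.75 per 100 kb, 1.22 to 2.43) and 71 Bmi1-/- peaks (3.55, 2.77 to 4.48), the lowest of the 6 genes in both lists. The flanks of the other 5 genes held between 3.75 (*Tectb*) and 8.35 (*Otog*) WT peaks and between 5.25 and 9.35 Bmi1-/- peaks per 100 kb. The *Otogl* region had the lowest GC content of the 6 (38.5%, median of all genes 44.5%), and 27.5% of it was repeat-masked, close to the median of 27.0%. The part of base composition in the number of peaks was not tested.

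**Figure D4:**
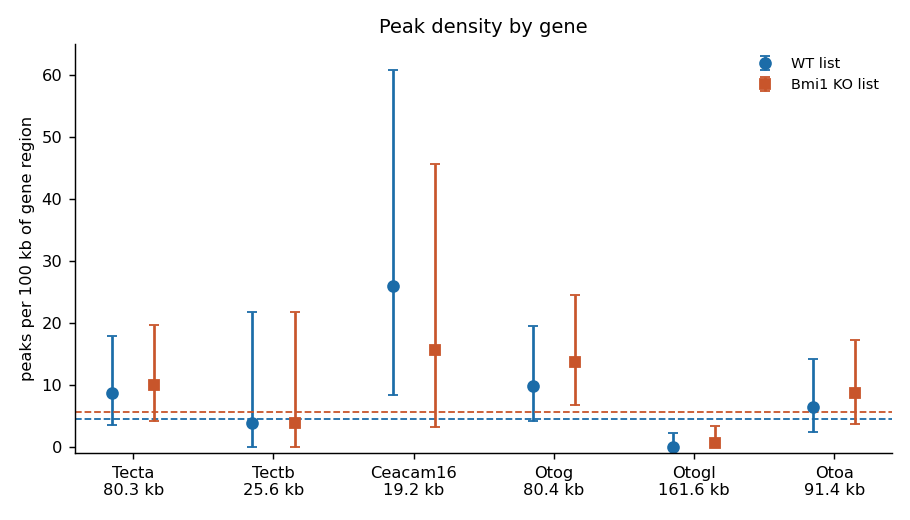
Peaks per 100 kb of gene region for each gene in the WT list (blue circles) and the Bmi1 KO list (orange squares), with exact Poisson 95% intervals that cover counting error only; dashed lines give the value over all protein-coding gene regions (4.54 and 5.70). For Otogl both intervals end below these lines, at 2.28 and 3.45, the WT interval of Ceacam16 (from 8.45) and the Bmi1 KO interval of Otog (from 6.83) start above them, and for every gene the intervals of the 2 lists overlap.

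*Otoa* (chromosome 7, 121081650 to 121163097, + strand) encodes otoancorin, the anchor of the membrane at the apical surface of interdental cells. Its region of 91.4 kb held 6 WT and 8 Bmi1-/- peaks, or 6.56 (2.41 to 14.3) and 8.75 (3.78 to 17.2) per 100 kb. It was the only member with at least 2 peaks in each list and no overlapping pair. Such a pair was present at only 49.8% (WT peaks) and 49.7% (Bmi1-/- peaks) of all genes. The Bmi1-/- list had a peak in the 5′ untranslated part, centred 100 bp downstream of the start of a protein-coding transcript, which its edge covered (121083418 to 121083629, -log10 q 1.97, 22 reads over 8.06, 66.5th percentile). A stronger one followed 992 bp downstream of the same start (121084304 to 121084528, -log10 q 3.24, 26 reads over 8.44, 89.8th percentile). The WT list had neither. Its promoter peak lay 2917 bp upstream of the annotated gene start (121078612 to 121078853, -log10 q 1.42, 18 reads over 6.32, 56.8th percentile).

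Further into *Otoa*, the strongest Bmi1-/- peak covered a coding exon (121121852 to 121122111, -log10 q 3.39, 27 reads over 8.80, 90.3rd percentile) and the strongest WT peak an intron (121107858 to 121108135, -log10 q 2.44, 21 reads over 6.32, 87.8th percentile). Their centres were about 14 kb apart. A further WT peak upstream (121074932 to 121075271, 17.3rd percentile) lay 185 bp from a TSS of the neighbouring gene *Mettl9*. The median percentile of the *Otoa* peaks was 37.2 in the WT list and 55.2 in the Bmi1-/- list, and 2 of 6 and 6 of 8 reached a -log10 q of 1.3. None overlapped between the lists, beside 71.1% (WT) and 78.1% (Bmi1-/-) without an overlap among the peaks in all gene regions.

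The windows that chose the peaks ended close to some of them. Just inside 3 kb of a TSS were the WT peaks of *Otoa* at 2917 bp (56.8th percentile) and of *Ceacam16* at 2386 bp (48.5th). Just outside were a WT peak of *Ceacam16* at 3569 bp (32.8th) and the Bmi1-/- peak in a coding exon of *Otoa* at 3592 bp (90.3rd). Just beyond the gene regions lay a WT peak 264 bp past that of *Ceacam16* (56.8th) and a Bmi1-/- peak 2226 bp past that of *Otogl* (69.3rd).

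By the position of the summit base, most member peaks lay in introns, 16 of 27 in the WT list and 17 of 32 in the Bmi1-/- list. A peak named intronic can thus also cover exon. Upstream of the gene were 7 and 4, in coding exons 4 and 8, in an untranslated region 0 and 1, and in exons of noncoding transcripts 0 and 2. Within 1 kb of a TSS of another gene were 3 WT peaks and 2 Bmi1-/- peaks, those named above. The median width was 261 bp in both lists, beside 260 and 277 bp for all peaks.

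The 201 bp around each summit were searched on both strands for 6 short motifs, as a description with no test. CAGCTG, a form of the E-box bound by basic helix-loop-helix factors, was found in 7 WT windows (25.9%) and 7 Bmi1-/- windows (21.9%), beside 13.1% and 13.5% of all peaks. It is also present in 3 of the 4 stretches printed for overlapping pairs, among the capitals in both *Ceacam16* stretches and outside them at *Tecta*. CCAAT, the CCAAT box, was found in 1 (3.70%) and 5 (15.6%) windows, beside 21.0% and 21.1%, and GGGCGG, the GC box, in 1 of each list, beside 11.3% in both. TGANTCA, the AP-1 element, was found in 2 (7.41%) and 4 (12.5%), beside 5.12% and 5.24%, and is among the capitals of the *Otog* stretch. TATAAA, the TATA box, was in 1 and 0 windows (5.29% and 4.78% of all peaks), and AACAAT, a Sox core motif, in 0 and 1 (5.17% and 5.22%). The stretch printed upstream of *Ceacam16* also holds GGGCGG among its capitals and TATAAA outside them. CCAAT and AACAAT are in none of the printed stretches. Overlaps between different motifs were not removed, the counts are small, and a match is not a site in use.

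Of the 6 genes, 4 had a promoter in RefSeq's table (250 bases before to 50 after the start, GRCm38.p6): *Otoa*, *Otog*, *Tecta*, which had 2, and *Tectb*. *Otogl* and *Ceacam16* were not matched. The 5 promoters held 0 (*Otog*), 4 (*Tecta* and *Tectb*) or 5 (*Tecta* and *Otoa*) CpG dinucleotides, beside a median of 7 in all 32851 promoters, of which 43.6% had at most 5. CCAAT was present in *Otoa* and *Otog* and in 37.4% of all promoters. None of the 5 held an exact TATAAA, found in 13.6% of all promoters, or GGGCGG, found in 35.7%. None held CAGCTG (16.3% of all promoters), AACAAT (10.7%) or TGANTCA (7.81%). Variant forms were not searched, such as the TATATAAG in the *Tectb* promoter printed above.

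Collagen genes of the tectorial membrane, genes of the otoconia and cupulae, and genes of the hair bundle and its attachment were counted in the same way. Over all protein-coding genes, 59.0% (WT) and 68.2% (Bmi1-/-) had a promoter peak. Of the 6 collagen genes of the tectorial membrane fibrils, 5 had a promoter peak in the WT list and 6 in the Bmi1-/- list, and *Col2a1*, the type II collagen gene, had the strongest (94.3rd and 97.3rd percentile). Of the 6 genes of the otoconia and cupulae, which belong to the vestibular organs, 2 had one in each list. The strongest was at *Oc90*, an otoconial protein gene (83.8th and 78.0th), and *Otol1*, *Sparcl1*, *Zpld1* and *Nox3* had none. Of 11 hair bundle and attachment genes, 7 and 9 had one, the strongest at *Cdh23*, the tip link cadherin, in the WT list (95.8th) and at *Adgrv1*, the ankle link receptor, in the Bmi1-/- list (97.0th). *Ptprq*, which neighbours *Otogl*, and the channel gene *Tmc1* had none.

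Peak density placed these lists in another order. No intervals were computed for the companion lists, and their gene regions differ in length, so that no difference between the lists is read from it. The gene regions of the collagens held 3.56 and 5.21 peaks per 100 kb, those of the otoconial genes 5.09 and 6.05, and those of the hair bundle genes 2.47 and 3.16, against 5.89 and 6.98 for the 6 matrix genes. The marker list for the greater epithelial ridge and interdental cells, the cells that secrete the membrane, had promoter peaks at 3 of 8 genes in the WT list and 5 in the Bmi1-/- list. It includes *Tectb* and *Otoa*, and *Epyc*, *Fabp7* and *Dcn* had none. The shares over all protein-coding genes were 59.0% (WT) and 68.2% (Bmi1-/-). These counts and densities are descriptions of lists of 6 to 11 genes. With the nearly empty *Otogl* region included, the pooled intervals of the matrix genes contain the density over all gene regions in both lists.

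**Figure D5:**
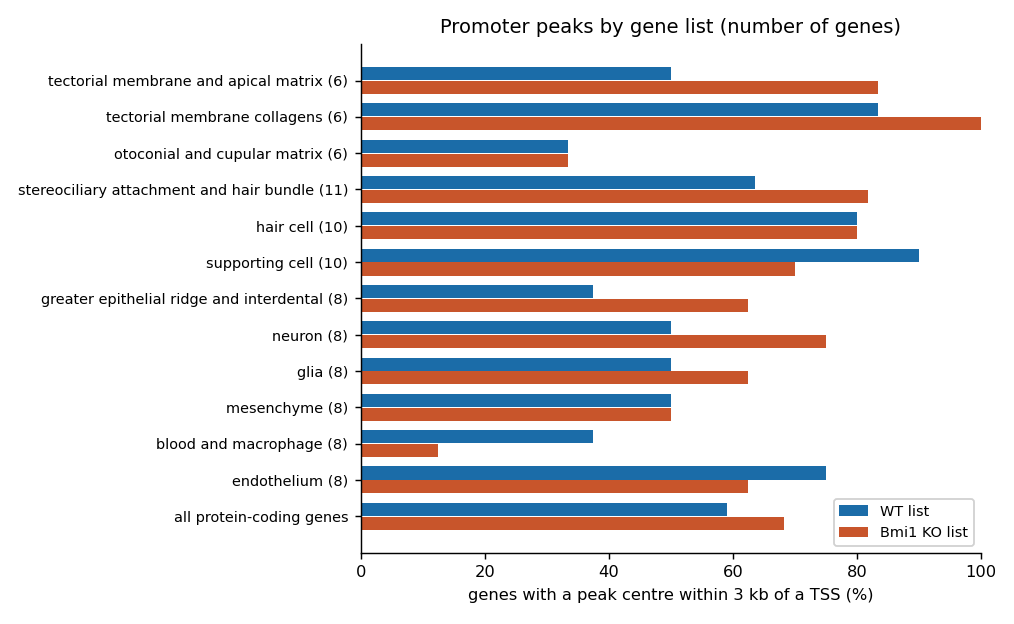
Share of genes with a peak centre within 3 kb of a TSS, in percent, for the 6 matrix genes, the companion and marker lists (number of genes in brackets) and all protein-coding genes, in the WT list (blue) and the Bmi1 KO list (orange). The matrix genes have 3 and 5 of 6, the collagens 5 and 6 of 6, and all genes 59.0% and 68.2%.

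The companion genes most like each member in the rank of the strongest region peak were named by the smallest summed difference over both lists, among 20 genes with a peak in each. For *Tecta* this was *Nox3* (difference 8.17 percentile points), for *Ceacam16* *Col9a2* (11.2), for *Otog* *Ptprq* (6.77) and for *Otoa* *Col11a1* (6.33). *Tectb* had no close counterpart, the nearest being *Tmc1* (26.5), and *Otogl* could not be compared because it had no WT peak. With 2 values a gene, this likeness says only that the ranks were near each other.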

How the data were processed

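The ATAC-seq peaks of 2 libraries (WT and Bmi1-/-, n = 1 each) were grouped by the genotype in the labels. The authors used BWA-MEM to map the reads to mm10 and MACS2 to call peaks, separately per library (build per the submitters' processing notes; the MACS2 version and options are not given in the sources used here). The deposited columns are peak positions, a score (10 times the -log10 p, not used), the fold enrichment (a ratio of pileup to local background), and the -log10 p and -log10 q-value within the library. They hold no read totals. The lowest -log10 p was 2.00 in the WT list and 2.01 in the Bmi1-/- list, and both lists also hold peaks with a -log10 q below 1.3.

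Of 77826 and 100668 peaks, 230 and 237 outside chromosomes 1 to 19, X and Y were left out. TSS and gene bodies were taken from GENCODE vM21 (GRCm38), and *Myo15a* was not found there under that symbol. Lists were compared by an overlap of at least 1 bp between whole intervals. The percentile of a peak was its rank by -log10 p among the kept peaks of its list. Pileup and background were solved from the fold enrichment and -log10 p under the Poisson model of MACS2, and came out whole for 100% of 5000 peaks per list (tolerance 0.001 in -log10 p). The scripts were tested on simulated data. Python 3.11.15, numpy 2.4.6, pandas 2.3.3, scipy 1.17.1 and matplotlib 3.10.9 were used.

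Intervals are 95% intervals (exact binomial for shares, exact Poisson for counts and densities) and cover counting error only. Genes named are the 6 members, the gene with the strongest promoter peak and up to 3 genes without any in each companion list, neighbours with a TSS within 1 kb of a member peak, and the most like companion gene. Outside this rule, 4 genes without any were named in the otoconial list. *Ush1c* was added as a companion gene with a TSS within 3 kb of an *Otog* peak. *Bmi1* was added as the targeted gene. The members, companion lists and marker lists were chosen with earlier results of these data known. Alternatives were stricter -log10 q, equal numbers of peaks, other windows, overlaps, annotation and measure of strength.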

Additional observations from a re-analysis of the deposited data

How the results depend on the processing

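Of 88 values recomputed under 15 alternatives, 65 stayed within the limits set (counts within 1.5 times) and 23 moved. With a -log10 q of at least 1.3, region peaks fell to 17 (WT) and 21 (Bmi1-/-) and those without overlap to 14 and 18. At 2 they were 4 and 10, and 4 and 10 without overlap, so that the shared share was 0% in both lists. At this limit, 1 member in each list had a promoter peak. Both lists were filtered before the overlap, so that a kept peak could lose its partner. The *Otog* pair, for instance, kept its Bmi1-/- peak (-log10 q 3.47) and lost its WT peak (1.62). No share over all gene regions was computed at these limits, and the 0% is not read as a result about the members. At 5, 0 peaks were left in either list, 0 without overlap, 0 members had a promoter peak in the WT list and 0 in the Bmi1-/- list, 0 ranked higher in the Bmi1-/- list, and no shared share could be given. With a promoter window of 1 kb, 1 and 3 members had a peak. RefSeq transcripts gave 3 members in the Bmi1-/- list, and so did the TSS of protein-coding transcripts only, an alternative chosen after seeing the data. The number of members ranked higher in the Bmi1-/- list was 3 or 4 under the alternatives other than a -log10 q of at least 5. The number of members with a promoter peak in the Bmi1-/- list thus depended on which TSS were used. No paired analysis was possible because each genotype has 1 library, and for the same reason no replicate could be left out. The lists hold only peaks above the caller's limit, so accessibility below it is not known.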
